A study of Mus musculus with 24 samples.

Results

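MiR-205-5p, miR-203-3p and the 2 mature arms of miR-31 are the microRNAs (miRNAs) described here, in serum and liver of mice with diet-induced steatohepatitis (NASH). They were picked by name, as 4 of the 1881 mouse miRNAs on the arrays, with all 8 of their probes and all 24 arrays. They were also selected on their readout, because miR-205-5p was lower in NASH serum and miR-203-3p lower in NASH liver. Every NASH minus control value of these 4 miRNAs is therefore a description with no test.

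The NASH mice received a high-fat diet that was free of choline, built from defined amino acids and held 0.1% methionine (CDAHFD), and the control mice received CE-2 chow. All were male C57BL/6NJcl mice bought at 5 weeks of age and acclimatized for 1 week, and they were 7, 8 or 12 weeks old after 1, 2 or 6 weeks of diet. Serum was prepared from blood of the heart, and livers were frozen. The 24 arrays fall into 12 groups by tissue, diet and week with 2 arrays each, which gives 6 NASH and 6 control arrays per tissue. Nothing in the labels tells whether the 2 arrays of a group stand for separate mice, and p-values then reflect only the scatter among the arrays, which could be technical.

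A miRNA is a short RNA that guides the silencing complex to messenger RNAs that pair with its seed, the bases 2 to 8 at its 5′ end. MiR-205-5p is abundant in stratified epithelia such as epidermis and restrains the ZEB repressors of the epithelial state. MiR-203-3p is induced as keratinocytes leave the basal layer, where it represses the stem-cell factor p63. MiR-31 is induced in wounded and inflamed epidermis, and both arms of its hairpin are known as mature products. None of them is a classical hepatocyte miRNA.

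The mature sequences are shown because they tell the members apart. Capitals mark the seed, and the sequences are those of RefSeq on mouse build GRCm38.p6.
mmu-miR-205-5p: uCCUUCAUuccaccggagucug
mmu-miR-203-3p: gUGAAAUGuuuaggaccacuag
mmu-miR-31-5p: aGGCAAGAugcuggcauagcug
mmu-miR-31-3p: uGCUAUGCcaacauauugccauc
MiR-205-5p lies in Mir205 at chr1:193507503-193507524 on the minus strand, and miR-203-3p lies in Mir203 at chr12:112130927-112130948 on the plus strand. The arms of miR-31 lie in Mir31 on the minus strand, miR-31-5p at chr4:88910614-88910635 and miR-31-3p at chr4:88910577-88910599. The 4 seeds differ from each other, and 0 other mature mouse miRNAs in the RefSeq table carry any of them. The longest stretch that any pair of members shares is 4 nt. The arms of miR-31 pair with each other over a run of 9 nt, as the strands of a hairpin do. An antisense miRNA at the Mir203 locus, miR-203b-5p, is complementary to miR-203-3p over 20 nt, and the arrays hold no probe for it.

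Levels are given as percent of an array's 75th percentile of signal, taken over those probes that stood well above background throughout the tissue's arrays. A level of 100 is thus as bright as that percentile, and the level depends on it. The percentile ranged from 338 to 578 units of processed signal on NASH serum arrays and from 143.98 to 642 on control serum arrays, and from 505 to 868 on NASH liver arrays and from 394 to 646 on control liver arrays. Between 313 and 399 miRNAs were detected on NASH serum arrays and between 235 and 362 on control serum arrays, and the liver arrays detected 337 to 379 in NASH and 253 to 307 in control. The fit set values below a floor of 3.81% in serum and 2.25% in liver to that floor. In both tissues the NASH arrays lay in other columns of the slide than the control arrays, and the effects of diet and of slide column cannot be told apart. The summed level of the hepatocyte markers miR-122-5p, miR-192-5p and miR-194-5p was 6322 to 11950% in NASH liver and 15690 to 18039% in control liver, so that the liver arrays carry their tissue's markers.

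The members divided between the tissues. MiR-205-5p was detected on 12 of 12 serum arrays and on 0 of 12 liver arrays. MiR-31-5p and miR-31-3p were the reverse, with 0 of 12 serum arrays and 12 of 12 liver arrays each. MiR-203-3p was detected on all 24 arrays.

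**Figure D1:**
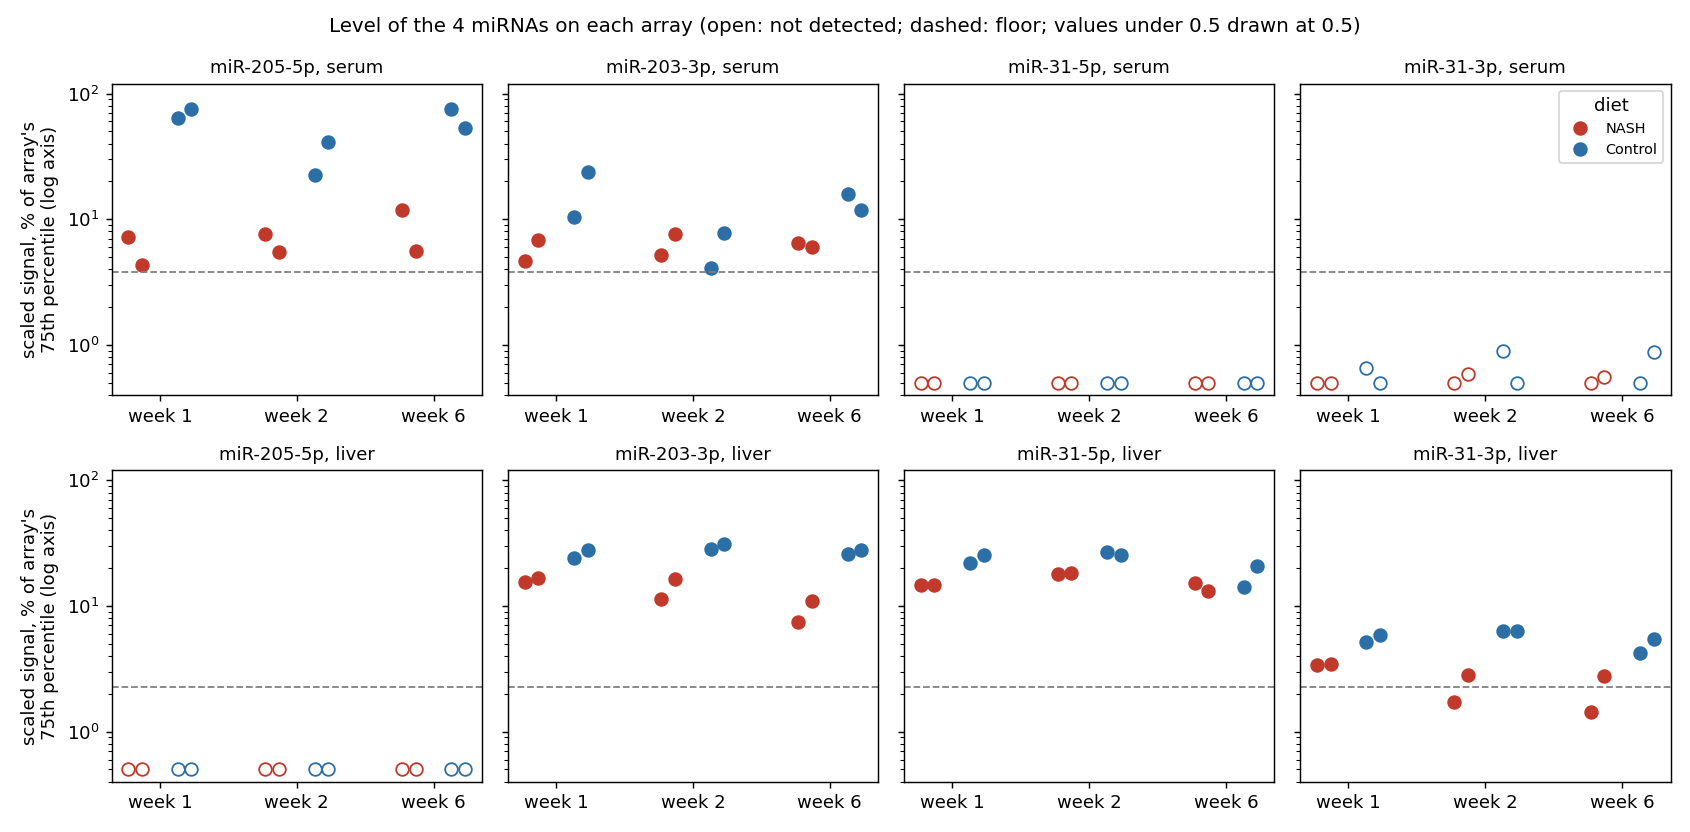
Level of each miRNA on each array, as percent of the array's 75th percentile on a log axis, by week, with NASH left of control. Filled points are detected, open points not detected, values under 0.5 are drawn at 0.5, and the dashed line is the floor of the fit. MiR-205-5p in serum and miR-203-3p and miR-31-3p in liver have all 6 NASH points below all 6 control points.

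MiR-205-5p was low on every NASH serum array. Its level was 7.16 and 4.31% at week 1, 7.66 and 5.50% at week 2 and 11.9 and 5.61% at week 6 in NASH serum. In control serum it was 63.6 and 75.2% at week 1, 22.3 and 41.2% at week 2 and 75.4 and 53.7% at week 6. All 6 NASH arrays lay below all 6 control arrays, and the nearest pair of values was 11.9% in NASH and 22.3% in control, from different weeks. Among the 426 miRNAs tested in serum, 18 (4.23%) showed this separation with NASH below control, and nothing is read from it for a miRNA chosen on that contrast.

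The mean level of miR-205-5p was 7.03 ± 2.69% in NASH serum and 55.2 ± 20.8% in control serum (SD, n = 6 each). The mean of the 3 weekly log2 differences, NASH minus control, was -2.94 (SE 0.28), a fold of 0.130, and it was the lowest of the 426. By week the difference was -3.64, -2.22 and -2.96 after 1, 2 and 6 weeks (SE 0.48 each). The smallest of these, at week 2, went with lower control levels, and the NASH levels of the 3 weeks overlapped. In the order of group means, control week 1 and control week 6 came highest and overlapped, control week 2 lay below both, and the NASH groups of weeks 6, 2 and 1 followed and overlapped each other.

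The separation of miR-205-5p was also present before scaling. The processed signal was 20.6 to 40.4 units on NASH serum arrays (median 27.3) and 51.2 to 483 units on control serum arrays (median 114). Without scaling the difference was -2.16, where the median over the 196 miRNAs detected on all serum arrays was 0.44. With scaling that median was -0.28, so that miR-205-5p lay 2.66 below it with scaling and 2.60 below it without. After normexp background correction, which adds an offset to all signals, the difference was -1.77, and after quantile normalization of that signal it was -1.37. Its second probe gave -2.67, so that both probes for this miRNA were lower in NASH.

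For miR-203-3p the diets overlapped in serum. In NASH serum its level was 4.66 and 6.89% at week 1, 5.21 and 7.61% at week 2 and 6.48 and 5.98% at week 6. In control serum it was 10.3 and 23.8% at week 1, 4.06 and 7.72% at week 2 and 15.8 and 11.9% at week 6. In scaled level NASH lay below control at weeks 1 and 6, and the week 2 values overlapped. Before scaling the diets overlapped at weeks 1 and 6 as well. The processed signal was 20.2 to 39.9 units in NASH (median 25.2) and 9.33 to 153 units in control (median 24.5). The probe was well above background on 6 of 6 NASH serum arrays and 4 of 6 control serum arrays, with 0 of 2 in control week 2.

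The mean level of miR-203-3p was 6.14 ± 1.09% in NASH serum and 12.3 ± 6.90% in control serum (SD, n = 6 each). The mean log2 difference was -0.81 (SE 0.28), with -1.47, 0.17 and -1.14 after 1, 2 and 6 weeks (SE 0.49 each). It was -0.18 without scaling and -0.26 with the 75th percentile taken over all mouse probes. Set against the median of the miRNAs detected on all serum arrays, miR-203-3p lay 0.53 below it with scaling, 0.62 below it without and 0.61 below it with the percentile over all mouse probes. Control weeks 1 and 6 had the highest group means and overlapped, and the means of the other 4 groups lay between 5.78 and 6.41% and their values overlapped. The second, dimmer probe was well above background on 3 of 12 serum arrays and gave -0.31.

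In liver, miR-203-3p was lower on every NASH array. Its level was 15.6 and 16.7% at week 1, 11.4 and 16.3% at week 2 and 7.42 and 11.02% at week 6 in NASH liver. In control liver it was 23.97 and 27.9% at week 1, 28.2 and 30.9% at week 2 and 26.0 and 27.9% at week 6. The groups did not overlap, and 41 of the 388 miRNAs tested in liver (10.6%) had all NASH arrays below all control arrays. In bulk tissue, fewer cells that hold a miRNA and less of it per cell cannot be told apart.

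The mean level of miR-203-3p was 13.1 ± 3.72% in NASH liver and 27.5 ± 2.31% in control liver (SD, n = 6 each). The mean log2 difference was -1.12 (SE 0.13), a fold of 0.460, and its second probe gave -1.09. The weekly differences were -0.68, -1.11 and -1.57 after 1, 2 and 6 weeks (SE 0.23 each). In NASH liver weeks 1 and 2 overlapped and week 6 lay below both, whereas the control weeks stayed between 23.97 and 30.9%. Without scaling the difference was -0.69, and the processed signals of the diets then overlapped, at 46.5 to 135 units in NASH and 103 to 180 units in control.

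MiR-31-5p, the arm usually taken as the main product, differed less between the diets. In NASH liver its level was 14.8 and 14.7% at week 1, 17.8 and 18.1% at week 2 and 15.2 and 13.2% at week 6. In control liver it was 22.1 and 25.7% at week 1, 26.9 and 25.2% at week 2 and 14.1 and 20.6% at week 6. The groups overlapped through the lower control array of week 6, and at weeks 1 and 2 every NASH value lay below every control value.

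The mean level of miR-31-5p was 15.6 ± 1.95% in NASH liver and 22.4 ± 4.71% in control liver (SD, n = 6 each). The mean log2 difference was -0.50 (SE 0.10), with -0.69, -0.54 and -0.27 after 1, 2 and 6 weeks (SE 0.18 each), and its second probe gave -0.51. Without scaling the mean difference was -0.071. The median over the 218 miRNAs detected on all liver arrays was -0.06 with scaling and 0.30 without, so that miR-31-5p lay 0.44 below it with scaling and 0.37 below it without. Control weeks 2 and 1 had the highest group means and overlapped. Control week 6 ranked between NASH week 2 and NASH week 1 and overlapped both.

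MiR-31-3p, the other arm, lay near the floor in NASH liver. Its level was 3.42 and 3.44% at week 1, 1.71 and 2.82% at week 2 and 1.43 and 2.79% at week 6 in NASH liver. In control liver it was 5.13 and 5.88% at week 1, 6.34 and 6.36% at week 2 and 4.24 and 5.42% at week 6. The groups did not overlap, as for 41 of the 388 miRNAs tested in liver (10.6%), and 2 NASH values lay under the floor. Before scaling the processed signals of the diets overlapped, at 8.64 to 29.7 units in NASH and 16.7 to 35.0 units in control.

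The mean level of miR-31-3p was 2.60 ± 0.85% in NASH liver and 5.56 ± 0.81% in control liver (SD, n = 6 each). The mean log2 difference was -0.98 (SE 0.10), a fold of 0.506, and it is understated where NASH values were raised to the floor. By week it was -0.68, -1.34 and -0.94 after 1, 2 and 6 weeks (SE 0.17 each). Its probe was well above background on 4 of 6 NASH arrays and 6 of 6 control arrays. The second probe was so on 5 of 12 arrays and gave -0.41, and the difference was -0.51 without scaling, -0.55 after normexp and -0.36 after quantile normalization. Control week 2 came highest, control weeks 1 and 6 overlapped below it, and NASH week 1 lay above weeks 2 and 6, which overlapped.

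**Figure D2:**
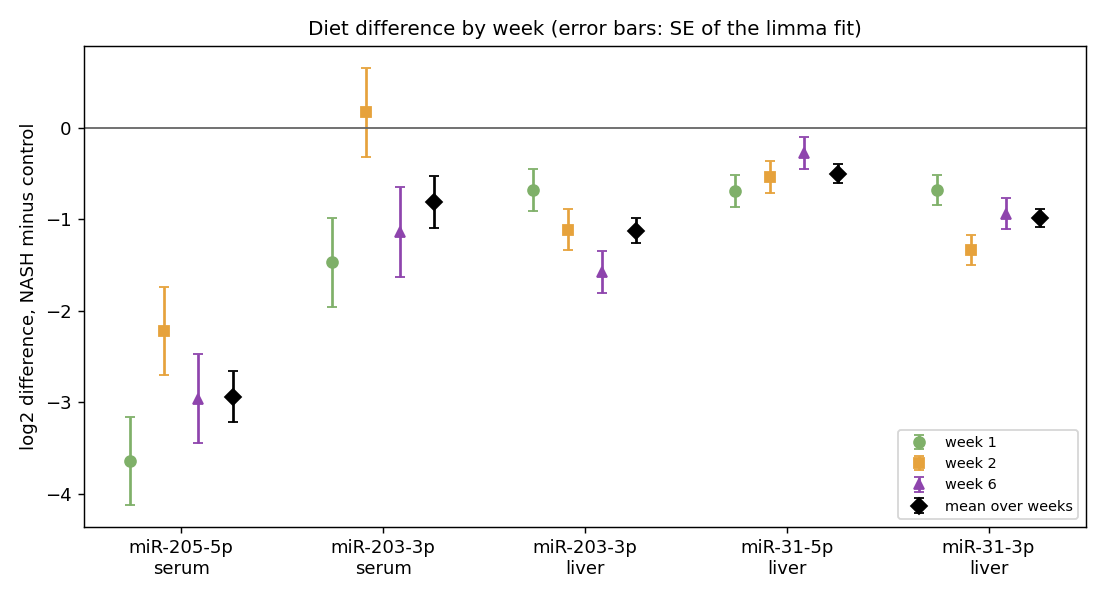
Log2 difference in level, NASH minus control, after 1, 2 and 6 weeks of diet and as the mean over weeks, for each member in each tissue that detected it. Error bars are the standard error of the limma fit, with 2 arrays per group. The differences lie below 0 except for miR-203-3p in serum at week 2, at 0.17.

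Whether the diet difference itself changed between weeks was not used to choose the members and was tested for each, with limma's F test over both changes between weeks and Benjamini-Hochberg adjustment over all miRNAs of the tissue. By limma 0 of the 5 tests passed an adjusted p of 0.05, and 0 of 5 had an unadjusted p below it. That unadjusted level was met by 67 of the 388 miRNAs of the liver fit and by 29 of the 426 of the serum fit. In liver the adjusted p was 0.329 for miR-203-3p, 0.329 for miR-31-3p and 0.586 for miR-31-5p, and 12 of 388 miRNAs (3.09%) passed. In serum it was 0.737 for both miR-205-5p and miR-203-3p, and 2 of 426 miRNAs (0.469%) passed. For liver miR-203-3p, the week 6 minus week 1 change in the diet difference was -0.90 with a 95% interval of -1.67 to -0.12, at an adjusted p of 0.247 in limma. For serum miR-205-5p that change was 0.68, with a 95% interval of -0.96 to 2.32.

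Levels by week were compared as week 6 minus week 1 over the mean of both diets. By limma 0 of the 5 tests passed the threshold, with 2 of 5 at an unadjusted p below 0.05. Both were liver tests, a tissue in which 89 of the 388 miRNAs reached this unadjusted level. The serum share was 73 of 426. In liver the log2 change was -0.39 (SE 0.16, limma adjusted p 0.215) for miR-203-3p, -0.32 (SE 0.12, adjusted p 0.172) for miR-31-3p and -0.27 (SE 0.12, adjusted p 0.246) for miR-31-5p. Of the 388 miRNAs, 30 (7.73%) passed in liver, and of the 426 in serum 9 (2.11%) passed. In serum the change was 0.22 (SE 0.34, limma adjusted p 0.832) for miR-205-5p and -0.03 (SE 0.35, adjusted p 1) for miR-203-3p. Weeks 1 and 6 of a tissue lay on different slides, and a slide effect cannot be told apart from a week effect here. Within a slide, liver week 6 minus week 2 was -0.36 for miR-203-3p, -0.21 for miR-31-3p and -0.48 for miR-31-5p, and serum week 2 minus week 1 was -0.48 for miR-205-5p and -0.67 for miR-203-3p, with limma adjusted p between 0.120 and 0.735. MiR-31-5p passed the week 6 minus week 1 test (-0.41, limma adjusted p 0.047) when control liver week 6 replicate 2 was left out, and did not pass without any other array.

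Serum and liver were compared over both diets and all weeks, in 1 limma fit with arrays scaled on probes that all 24 showed well above background. Serum was labelled from 2.5 ng and liver from 100 ng of RNA, so that the comparison is of shares of the measured signal, not of amounts. MiR-205-5p had a mean processed signal of 103 units in serum and -0.66 units in liver, and was at least 13.9-fold higher in serum. The bound was at least 5.27-fold in NASH and at least 36.6-fold in control mice. MiR-205-5p and miR-31-5p entered this fit only through the tissue that detected them, so that their bounds are descriptions with no test. A bound sets the mean of the tissue that detected the miRNA against the lowest signal well above background on the arrays of the other tissue.

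MiR-31-5p had a mean processed signal of 0.047 units in serum and 112 units in liver, and was at least 3.24-fold higher in liver. Its fitted difference, with serum at the floor, was -2.25, and it was -0.18 after normexp correction. MiR-31-3p had 1.66 units in serum and 23.8 units in liver, and the dimness of its probe allowed no bound on the fold. MiR-203-3p, measured in both tissues, had a serum minus liver log2 difference of -0.59 (SE 0.16, limma adjusted p 0.0038), which is 1.51-fold higher in liver. It was -0.62 in NASH and -0.57 in control mice, and -0.50 between serum week 6 and liver week 1, which shared a slide. The size depended on the scaling, with -1.98 without scaling and -1.99 with the percentile over all mouse probes. Its direction turned after normexp correction, to 0.39. Of the 526 miRNAs in this fit, 363 (69%) passed, so that a tissue difference is the usual case.

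The other mature arms of these hairpins were at or near background. MiR-205-3p was detected on 0 of 24 arrays. MiR-203-5p was detected on 1 of 12 liver arrays and 0 of 12 serum arrays, and its level of 0.253 to 0.734% in NASH liver and 0.853 to 1.27% in control liver lay under the floor throughout.

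Of 9 other epithelial miRNAs, 2 fell in NASH serum and none passed the test in liver. The list held the miR-200 family (miR-200a-3p, miR-200b-3p, miR-200c-3p, miR-141-3p and miR-429-3p, which hold back the ZEB repressors), the sensory-cell cluster miR-182-5p, miR-183-5p and miR-96-5p, and the corneal miR-184-3p. In serum 5 of 9 were tested, 0 rose and 2 fell, where 80 of 426 miRNAs (18.8%) passed in all, 21 upward and 59 downward. The median log2 difference of the 5 was -0.33, against -0.11 over all miRNAs tested in serum. In liver 6 of 9 were tested and 0 rose and 0 fell by limma, where 163 of 388 (42%) passed in all, 85 upward and 78 downward. The median of the 6 was 0.41, against 0 over all miRNAs tested in liver. An unadjusted limma p under the threshold was found for 2 of the 6, a smaller share than among all miRNAs tested in liver.

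MiR-200b-3p was 3.49 and 6.89% at week 1, 3.15 and 3.60% at week 2 and 3.59 and 2.40% at week 6 in NASH serum. In control serum it was 8.61 and 12.9% at week 1, 3.99 and 12.0% at week 2 and 18.4 and 13.4% at week 6. In scaled level the groups overlapped across weeks but not within a week, and 5 of the 6 NASH values lay under the floor. Before scaling the diets also overlapped within week 1 and within week 2. MiR-200b-3p fell by 1.31 on the log2 scale (SE 0.31, limma adjusted p 0.030), and by 0.66 when its probes were averaged. MiR-200c-3p passed as well (limma adjusted p 0.015), but it was detected on 3 of 12 serum arrays and its fitted difference of -0.33 rests on the floor. MiR-429-3p had -0.58 (limma adjusted p 0.051). The count of 2 was 0 without scaling and 0 with the 75th percentile over all mouse probes, 3 with quantile normalization, 5 with normexp, and between 1 and 4 when 1 array was left out. In liver the largest differences were 0.80 for miR-200c-3p (limma adjusted p 0.069) and 0.60 for miR-200b-3p (limma adjusted p 0.091). The liver count also moved, with 1 higher after quantile normalization and 1 lower after normexp. Among miRNAs detected on every array 1 rose, miR-200b-3p (limma adjusted p 0.039). Up to 3 of the list rose when NASH liver week 1 replicate 2 was left out.

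**Figure D3:**
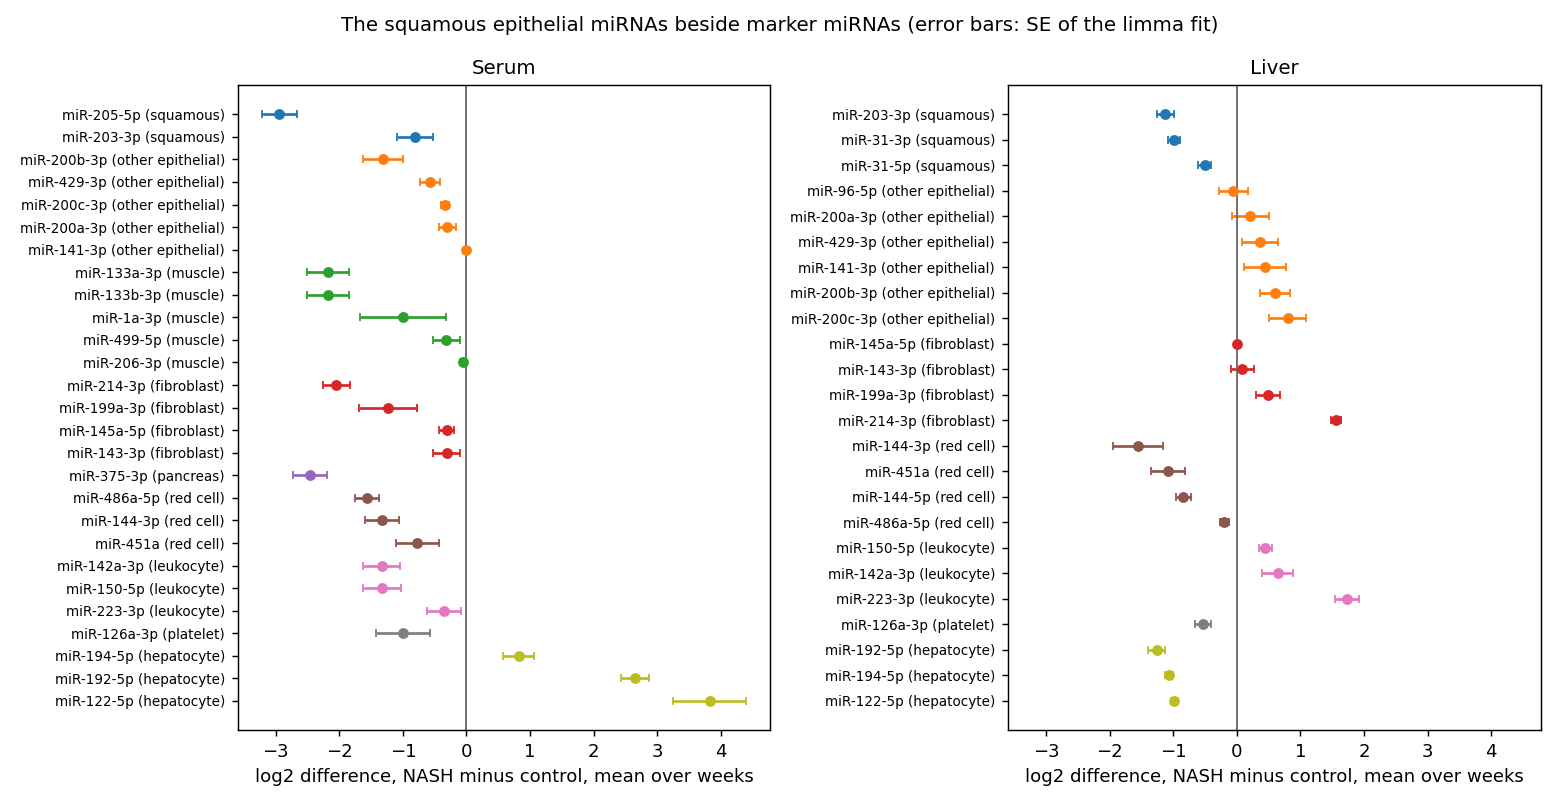
Log2 difference in level, NASH minus control, as the mean over weeks, for the members (squamous), the other epithelial miRNAs and the marker miRNAs of other cell types, in serum and in liver. Points are fitted differences and error bars the standard error of the limma fit. In serum miR-205-5p at -2.94 lies beside miR-375-3p at -2.46 and miR-133a-3p at -2.18, and miR-122-5p lies at 3.82.

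Some markers of other cell types were lower in NASH serum, as miR-205-5p was, and the counts below stand beside the 18.8% of all serum miRNAs that passed. Of those 80 calls 21 were higher and 59 lower, and this split depended on the scaling. Without scaling 44 passed (37 higher, 7 lower), and with the percentile over all mouse probes 39 (32 higher, 7 lower). The marker calls below are from the scaled fit only. Of 6 muscle miRNAs 5 were tested and 2 fell, with miR-133a-3p at -2.18 and miR-133b-3p at -2.18 (limma adjusted p 0.0060 each), and miR-208a-3p was not detected on any array. The 2 that fell had nearly the same difference and SE (0.335 and 0.334). Whether their probes tell them apart was not tested, so they may be 1 observation. The heart and skeletal muscle miR-1a-3p had -1.002 (limma adjusted p 0.426) and did not pass. The summed level of the 6 muscle miRNAs was 186 to 898% in NASH serum and 1374 to 2955% in control serum. Of the 4 fibroblast and smooth muscle miRNAs 1 fell, miR-214-3p at -2.05 (limma adjusted p 0.0022), and their sum was 8.91 to 55.7% in NASH serum and 72.4 to 137% in control serum.

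Of 3 pancreas miRNAs the endocrine miR-375-3p was tested and fell by 2.46 (limma adjusted p 0.0022), with a level of 7.59 to 12.3% in NASH serum and 27.0 to 148% in control serum, while the acinar miR-216a-5p and miR-217-5p were not detected. The scaled muscle, fibroblast and pancreas sums separated the diets without overlap, as the scaled miR-205-5p did. Before scaling the muscle and fibroblast sums of the diets overlapped, whereas the pancreas sum and miR-205-5p still separated them. Of the red cell miRNAs 2 of 3 tested fell, with a sum of 819 to 7198% in NASH serum and 3083 to 6725% in control serum. Of 3 leukocyte miRNAs 2 fell, with a sum of 282 to 690% in NASH serum and 435 to 932% in control serum. The platelet and endothelial miR-126a-3p had -0.997 (limma adjusted p 0.182), with 16.4 to 96.3% in NASH serum and 50.7 to 235% in control serum.

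The hepatocyte markers went the other way in serum. Of 3 tested, 2 rose, with miR-122-5p at 3.82 (limma adjusted p 0.0060) and miR-192-5p at 2.65 (limma adjusted p 0.0011), and their sum was 1836 to 3122% in NASH serum and 75.9 to 405% in control serum. The part of these cell types, and of the share of signal that hepatocyte miRNAs take up, in the lower miR-205-5p was not tested.

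In liver the 3 hepatocyte markers were lower in NASH as well, where 42% of all liver miRNAs passed in either direction. All 3 fell, with miR-192-5p at -1.26 (limma adjusted p 4.40e-04), miR-194-5p at -1.06 and miR-122-5p at -0.98 (limma adjusted p 4.13e-05 and 2.86e-05). Of the 4 red cell miRNAs 3 fell, and their sum was 115 to 429.3% in NASH liver and 374 to 672% in control liver. Leukocyte miRNAs went the other way, with 2 of 3 higher and a sum of 168 to 324% in NASH liver and 89.7 to 126.1% in control liver. Of 4 fibroblast miRNAs 1 rose, miR-214-3p at 1.57 (limma adjusted p 2.04e-05), and miR-126a-3p fell by 0.53 (limma adjusted p 0.016). The 3 pancreas miRNAs were not detected in liver, and none of the 6 muscle miRNAs reached detection on 2 arrays. The part of these cell types in the lower miR-203-3p, miR-31-3p and miR-31-5p was not tested.

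The miRNAs whose levels ran most like each member were found by Pearson correlation of log2 level over the 12 arrays of a tissue. Candidates were the 322 miRNAs in liver and 323 in serum that were detected on at least 6 arrays. Arrays share their diet, week, slide and scaling, so these values describe and carry no test. The second value given is the correlation of the deviations from the group means, from which diet and week are removed.

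For miR-205-5p in serum these were miR-193b-3p (r = 0.97, within groups 0.89), miR-1198-5p (r = 0.88, within groups 0.47) and miR-214-3p (r = 0.86, within groups 0.69). For miR-203-3p in serum they were miR-10b-5p (r = 0.90, within groups 0.97), miR-429-3p (r = 0.85, within groups 0.88) and miR-200b-3p (r = 0.83, within groups 0.83). MiR-429-3p and miR-200b-3p are of the other epithelial list. MiR-429-3p was detected on 8 of 12 serum arrays, and most NASH serum values of miR-200b-3p lay under the floor. Nothing is therefore read from their place among the most alike. The correlation between miR-205-5p and miR-203-3p in serum was 0.72, and 0.25 within groups.

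For miR-203-3p in liver the most alike were miR-192-3p (r = 0.99, within groups 0.90), miR-23b-3p (r = 0.98, within groups 0.84) and miR-122-3p (r = 0.98, within groups 0.99). For miR-31-3p they were miR-22-5p (r = 0.98, within groups 0.98), miR-122-3p (r = 0.97, within groups 0.80) and let-7f-5p (r = 0.96, within groups 0.92). For miR-31-5p the values were lower, with miR-139-5p (r = 0.82, within groups -0.02), let-7a-5p (r = 0.81, within groups 0.14) and miR-1198-5p (r = 0.81, within groups -0.06). The correlation of miR-203-3p in liver was 0.94 with miR-31-3p (within groups 0.85) and 0.68 with miR-31-5p (within groups -0.03), and that between the arms of miR-31 was 0.76 (within groups 0.48).

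**Figure D4:**
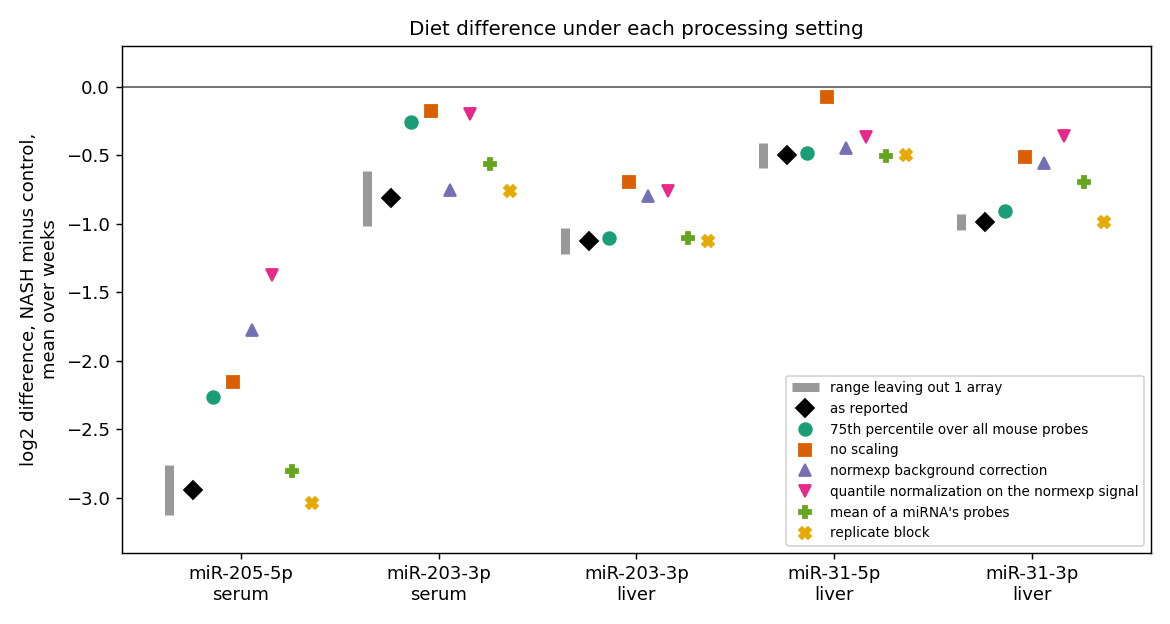
Log2 difference in level, NASH minus control, as the mean over weeks, for each member under each processing setting, with 1 marker per setting. The grey bar is the range when each of the 12 arrays is left out in turn. Every value lies below 0, and miR-31-5p in liver without scaling is nearest to it, at -0.071.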

How the data were processed

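The deposited values are spot intensity from the scanner, per the file headers, and the submitters' processing notes name Agilent Feature Extraction 11.5. The processed signal is background-subtracted, and no normalization between arrays was seen in it. Arrays carried Cy3 only, and each member had 2 probes. The number of arrays limits the precision.

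Spots of a probe were averaged, without control spots and outliers. Signals were scaled to an array's 75th percentile over probes that every array showed well above background (299 in liver, 253 in serum and 163 over both). They were floored at the arrays' median 5th percentile of signals well above background, and set to log2. The brightest probe stood for a miRNA, and miRNAs detected on at least 2 arrays were tested (388, 426 and 526). Groups were fitted with limma 3.58.1 (lmFit, eBayes, R 4.3.3), with Benjamini-Hochberg adjusted p below 0.05 as a call. The limma fit was checked on simulated log2 levels. Scaling, floor, probe choice and detection filter were not part of that check.

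Members, lists and tests were chosen with earlier results of these data known. The miRNAs named are the members, their other arms, the miRNAs most like each by correlation, up to 4 of the other epithelial list per tissue by size of difference, and marker miRNAs. MiR-203b-5p and miR-203b-3p were named by that rule and have no probe here.

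The arrays lay on 3 slides, with serum weeks 1 and 2 on the first, serum week 6 and liver week 1 on the second, and liver weeks 2 and 6 on the third, and both diets of a week shared a slide. A serum array of NASH week 6 has no replicate number, and replicate numbers were not taken as pairs. Alternatives changed scaling, background correction, normalization, filter, probe summary and blocks. Every array was also left out once.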

Additional observations from a re-analysis of the deposited data

Results flagged for a closer look

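By scaled level, miR-200b-3p, an epithelial miRNA of the miR-200 family, lay in opposite directions in the tissues at 2 of 3 weeks. At week 2 it was 15.4 and 14.4% of the array's 75th percentile in NASH liver and 10.4 and 12.7% in control liver, a log2 difference of 0.378. At week 6 it was 20.1 and 29.0% in NASH liver and 14.5 and 12.6% in control liver, a log2 difference of 0.833. At both weeks every NASH liver array lay above every control liver array, while every NASH serum array lay below every control serum array. All NASH serum values of these weeks lay under the serum floor of 3.81%, and the lower control serum value of week 2 lay just above it. At week 1 the liver arrays overlapped, with 34.3 and 14.4% in NASH and 12.1 and 17.8% in control, and the liver difference over weeks did not pass (0.60, limma adjusted p 0.091). The difference between the tissues was not tested. Groups of 2 arrays could not be screened for single arrays that stand apart.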

How the results depend on the processing

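No diet difference of a member (mean over weeks) changed sign under any of the 8 settings or when any 1 array was left out. Without scaling it was -0.69 for miR-203-3p, -0.071 for miR-31-5p and -0.51 for miR-31-3p in liver, and -2.16 for miR-205-5p and -0.18 for miR-203-3p in serum. With the 75th percentile over all mouse probes it was -2.27 for miR-205-5p and -0.26 for miR-203-3p in serum. With quantile normalization it was -0.76 for miR-203-3p and -0.36 for miR-31-3p in liver, and -1.37 for miR-205-5p and -0.20 for miR-203-3p in serum. With normexp it was -0.79 for miR-203-3p and -0.55 for miR-31-3p in liver and -1.77 for miR-205-5p in serum, and with probes averaged -0.70 for miR-31-3p in liver. With normexp the serum minus liver difference was 0.39 for miR-203-3p, 0.83 for miR-31-3p and -0.18 for miR-31-5p, and the serum week 6 minus week 1 change of miR-203-3p passed at 0.39. The cause of these changes was not tested. Counts of calls moved as follows. For diet, liver had 100 with all probes and 246 with quantile normalization, and serum 39 with all probes (32 higher, 7 lower), 44 without scaling (37 higher, 7 lower), 362 with normexp (16 higher, 346 lower) and 30 with replicate number as a block. For weeks in the diet effect, liver had 3 without scaling, 0 with normexp, 0 among miRNAs detected on every array, 1 with the replicate block and 4 with slide row as a block, and serum had 0 in the first 4 of these and with quantile normalization, and 1 with slide row. For week 6 minus week 1, liver had 4 with all probes, 0 without scaling, 15 with quantile normalization, 0 with normexp, 14 among miRNAs detected on every array and 3 with the replicate block. Serum had 1, 112, 7, 312, 19 and 0 in the same settings, and 3 with slide row. The tissue count was 121 of 129 among miRNAs detected on every array. With 1 array left out, diet calls were 134 to 173 in liver and 49 to 118 in serum, weeks calls 1 to 36 and 1 to 32, week 6 minus week 1 calls 5 to 57 and 3 to 23, and tissue calls 353 to 388. The members then ranged from -3.12 to -2.76 for serum miR-205-5p, -1.01 to -0.61 for serum miR-203-3p, -1.22 to -1.03 for liver miR-203-3p, -0.59 to -0.41 for liver miR-31-5p and -1.04 to -0.92 for liver miR-31-3p. The serum diet count of 80 moved by over 1.5 times without NASH week 1 replicate 1 (51), NASH week 2 replicate 1 (49) or NASH week 6 replicate 2 (51). The week 6 minus week 1 change of miR-31-5p in liver ranged from -0.41 to -0.13 then. Same-numbered NASH and control arrays deviated from their group means with correlations of -0.60, 0.42 and 0.48 in liver (weeks 1, 2 and 6) and 0.55 and 0.14 in serum (weeks 1 and 2). Serum week 6 (0.18) has an unnumbered array, so that pairing was not shown in liver and could not be settled in serum. With the replicate block 0 of the other epithelial list fell in serum, and miR-200b-3p had a limma adjusted p of 0.162, where its alternatives ranged from 5.01e-05 (normexp) to 0.18005 (no scaling). Slide as a random block could not be fitted, because every group lay on 1 slide. Depth of signal limits miR-31-3p in liver, miR-203-3p in serum and the miR-200 family in serum, which lie near the floor.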

Other observations

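In liver, all 5 members of the miR-200 family (miR-200a-3p, miR-200b-3p, miR-200c-3p, miR-141-3p and miR-429-3p) had their highest level on the same array, NASH week 1 replicate 1. MiR-200b-3p was at 34.3% of the array's 75th percentile there and at 14.4% on the other NASH array of that week. The summed level of the other epithelial list was 87.8% on that array, against 37.0% on its replicate and 28.5 to 49.1% over the control livers. The corneal miR-184-3p was detected on 1 liver array, control week 6 replicate 1, at 3.47%.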
